A study of Homo sapiens with 12 samples.

Results

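The 33 genes described here make and recycle nucleotides and run the folate and methionine cycles. They were chosen by name for their role in these pathways: 11 act in purine synthesis, 5 in pyrimidine synthesis, 7 in salvage or as nucleotide kinases, 6 in the folate cycle and its transport, and 4 in the methionine cycle. All 33 were found among the 63677 genes listed, and all 33 were among the 17730 with enough reads to be tested. The cells were HCT116, an established human colorectal carcinoma line, transfected for 72 h with siRNA at 62.5 nM. NFYA, the targeted gene, encodes the DNA-binding subunit of NF-Y, a trimeric transcription factor that recognises the CCAAT box of promoters. The groups siTotal1 and siTotal2 received 1 of 2 siRNA sequences against all NFYA transcripts, and the groups siLong1 and siLong2 received 1 of 2 sequences against the long NFYA isoform. The siControl group received a non-targeting siRNA, and the mock group was transfected with no siRNA. Each of the 6 groups had 2 libraries, described by the submitters as biological duplicates of 1 cell line, so the p-values below measure only the spread between such duplicates. Below, siTotal and siLong mean the average of the 2 sequences.

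Purine rings are built stepwise on phosphoribosyl pyrophosphate, the activated ribose that also feeds pyrimidine synthesis and base salvage. Folate carries the 1-carbon units used for purine rings, for thymidylate and for remethylating homocysteine to methionine, from which the methyl donor S-adenosylmethionine is made. Proliferating tumour cells depend heavily on these routes, and several of the enzymes are targets of cytotoxic or immunosuppressive drugs.

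The libraries held 35604197 to 49746637 counted reads. Levels are CPM, counts relative to the total of the library, scaled between libraries by the trimmed mean of M-values. NFYA stood at 47.9 and 46.8 CPM in siTotal1, 46.0 and 46.1 in siTotal2, 47.6 and 46.5 in siLong1, 69.7 and 70.2 in libraries labelled siLong2, 57.4 and 57.5 in siControl, and 55.2 and 59.1 in mock. The siTotal1, siTotal2 and siLong1 libraries lay below all 4 control libraries, whereas the libraries labelled siLong2 lay above them (log2 difference -0.57, SE 0.05, adjusted p = 3.3e-12 for siLong1 against siLong2). The counts sum all isoforms of a gene and do not separate the long one. Whether the long isoform fell in either siLong group therefore cannot be told from them. Of 10 colon epithelium markers, 7 passed the count filter (VIL1, CDX1 and CEACAM5 did not); the summed level of the list averaged 3635, 3332, 5437, 5054, 3323 and 3516 CPM in siTotal1, siTotal2, siLong1, the libraries labelled siLong2, siControl and mock, so it was highest in both siLong groups. Its part in the siLong results below was not tested. Over the 12 libraries the 7 fibroblast markers, 5 of them tested, summed to 26.4 to 45.9 CPM, the 5 blood markers, 1 of them tested, to 0.144 to 0.613 CPM and the 3 endothelial markers, 1 of them tested, to 0.420 to 1.22 CPM, with PECAM1 at 0 in every library.

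NF-Y recognises the letters CCAAT, read as ATTGG on the other strand. The RefSeq promoter windows (GRCh38.p14, 250 bases before to 50 after a start) matched 31 of the 33 genes by symbol; ADSL and IMPDH2 had no entry. CCAAT on either strand was found in 21 of 52 windows, or 40.4%, belonging to 14 of 31 genes, or 45.2%. Among all tested genes with a window, the shares were 34.5% of windows and 42.8% of genes. The letters CACGTG, recognised by MYC and MAX, cannot overlap CCAAT or ATTGG and read the same on both strands. They were found in 11 of the 52 windows, or 21.2%, against 9.12% of windows of all tested genes. By gene the shares were 9 of 31, or 29%, against 12.3%. The windows are not independent, since PPAT and PAICS hold the same CACGTG site on chromosome 4. The stretches below are shown because they hold the CCAAT letters nearest upstream of the first listed start of each gene whose values are given in full and whose window holds them. Capitals mark the motif, each sequence reads 5′ to 3′ along the gene's strand, and the distance counts bases from the motif to the start.
PRPS1: tgctcttcacCCAATacctgagaga (chrX:107628344-107628368, plus strand, 156 bases before the start)
DHODH: accatctcctCCAATggaagggaga (chr16:72008712-72008736, plus strand, 22 bases)
ADK: acggatagagCCAATgattgtggat (chr10:74151118-74151142, plus strand, 93 bases)
NME1: tctcgggaagCCAATttgctcgcga (chr17:51153346-51153370, plus strand, 203 bases)
DTYMK: ttgacgccggCCAATgggagctccg (chr2:241686825-241686849, minus strand, 24 bases)
SHMT1: gcgctctctgATTGGgcgcctccgg (chr17:18363561-18363585, minus strand, 25 bases)
MTR: ctcgggcagaCCAATcacaggccgg (chr1:236795228-236795252, plus strand, 43 bases)
MAT2A: caagtggtgcATTGGcgcgcggcgc (chr2:85539070-85539094, plus strand, 88 bases)
MAT2B: cggagcgtggCCAATcaacgggcgc (chr5:163505516-163505540, plus strand, 93 bases)
Of the other genes whose values are given in full, PRPS2, IMPDH1, CTPS1, CTPS2, UMPS, HPRT1, CMPK1, NME2 and SFXN1 held no CCAAT in their windows, and IMPDH2 had no window. A match describes letters in a window and nothing more.

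Per kilobase of exon, the members covered a wide range of levels. IMPDH2 was highest, at a mean of 182 CPM per kb over the 12 libraries, followed by AHCY at 103.5, PAICS at 82.8, APRT at 76.7 and MAT2A at 71.1 CPM per kb. The lowest were NME2 at 2.57, DHODH at 3.68 and CTPS2 at 3.81 CPM per kb. The NME2 level is uncertain, because the readthrough gene NME1-NME2, listed with 0 reads in every library, shares 22.9% of its exon bases. Whether NME2 lost reads for that reason was not tested. Within a gene the libraries lay close together: the highest library was 1.18 times the lowest for PRPS1, 1.41 times at the median gene and 2.92 times for CMPK1. Only CMPK1, MAT2A and PRPS2 spanned at least 2-fold, and 23 of the 33 spanned less than 1.5-fold. The 2 libraries of a group differed by a root mean square of 0.06 to 0.11 on the log2 scale over the members. The summed level of all 33 genes was 5183 ± 143 CPM in siTotal1, 4971 ± 71.9 in siTotal2, 5110 ± 18.6 in siLong1, 4841 ± 34.9 in the libraries labelled siLong2, 4964 ± 2.00 in siControl and 5542 ± 50.5 in mock (SD, n = 2 each). In bulk RNA a lower level in fewer cells and a lower level per cell cannot be told apart.

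**Figure D1:**
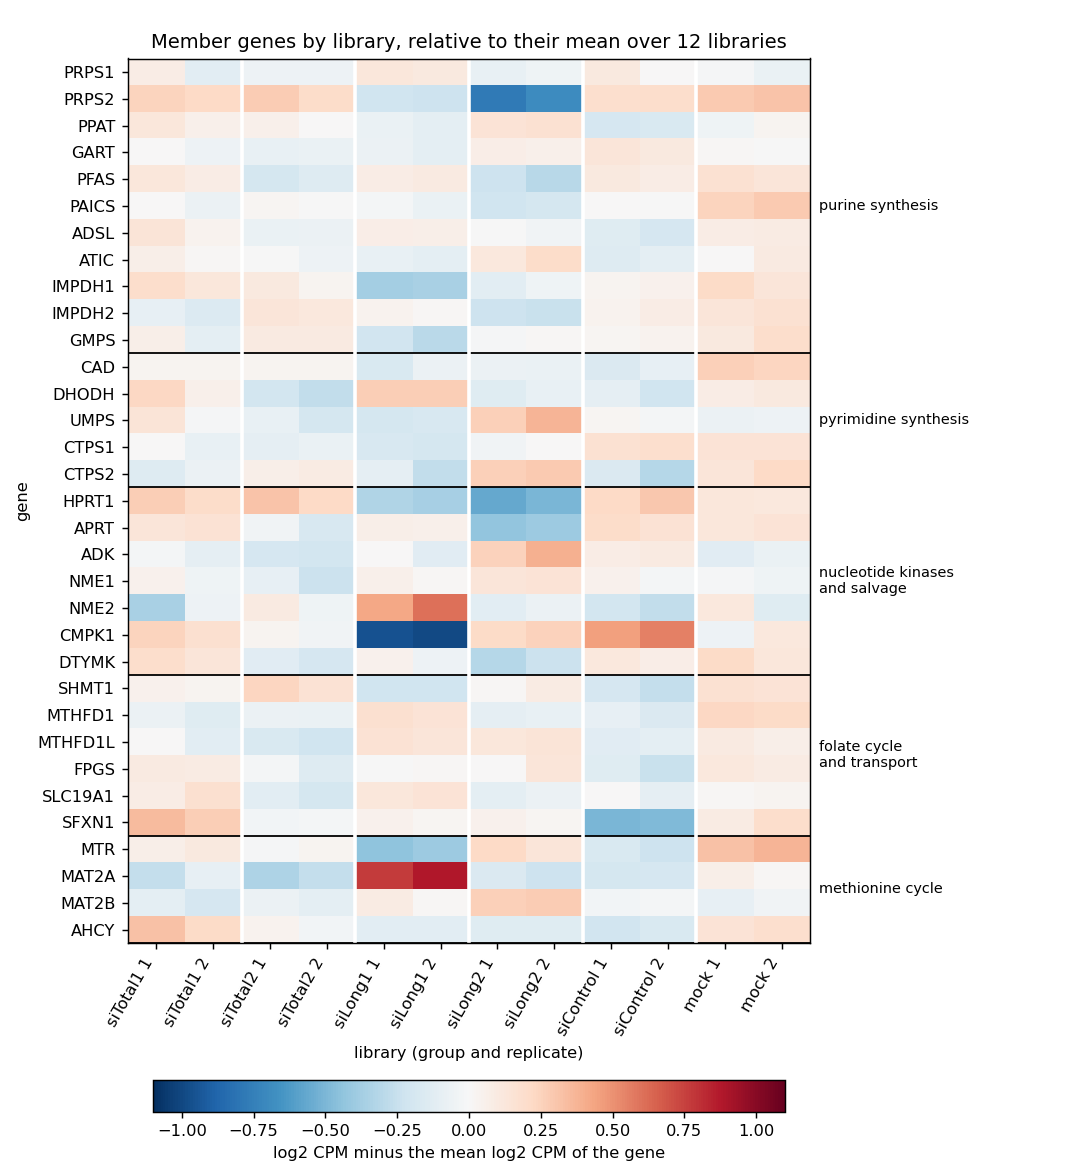
Log2 CPM of the 33 genes (rows, grouped by role) in each of the 12 libraries (columns), minus the mean of the gene over the libraries; red is above and blue below that mean. CMPK1 in siLong1, PRPS2 and HPRT1 in siLong2 and SFXN1 in siControl stand out as low, and MAT2A in siLong1 as high.

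A gene was called where its adjusted p was under 0.05 in edgeR's quasi-likelihood test, with Benjamini-Hochberg adjustment over all genes tested. The strictest comparison asked for a call in the same direction by both siRNA sequences of a target against both siControl and mock. For siTotal, 1 member met it, CTPS1, which fell; over all genes 4.29% met it either way, 2.45% as higher and 1.83% as lower. For siLong, 4 members met it, PRPS2, IMPDH1, CTPS1 and HPRT1, which all fell; over all genes 14% met it either way, 6.71% as higher and 7.24% as lower. The number of members called higher was 0 for siTotal and 0 for siLong with edgeR, 0 for both at an unadjusted p under 0.05, and 0 for both with DESeq2. Both counts, 1 and 4 of 33, were close to the shares over all genes. Leaving out siControl replicate 2 or siLong2 replicate 1 gave 3, since IMPDH1 was no longer called; DESeq2 also called 3, without IMPDH1. With the libraries labelled siLong2 left out altogether, siLong1 alone against both controls gave 3 higher (DHODH, NME2, MAT2A) and 8 lower (PRPS2, IMPDH1, GMPS, UMPS, CTPS1, HPRT1, CMPK1, MTR), against 35.1% of all genes called either way. The 2 siRNA sequences of a target were also counted as 2 replicates, with siControl and mock as 2 controls. In that fit edgeR called 0 members for siTotal (smallest adjusted p = 1) and 0 for siLong (smallest adjusted p = 0.43). It also called 0 of all 18527 genes tested for siTotal and 0 of all 18620 for siLong, so 0 is not particular to the members. At an unadjusted p under 0.05 the member counts were 0 for siTotal and 2 for siLong (PRPS2 and HPRT1). Over all genes tested in that fit, 589 and 1736 had an unadjusted p under 0.05, in the same order.

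The pooled comparisons called more members, mostly with small differences. In siTotal against siControl, 10 members rose and 7 fell, where 44.2% of all genes were called either way, 22% as higher and 22.2% as lower; the number lower was 11 without siTotal1 replicate 1. In siTotal against mock, 1 rose and 14 fell, where 30.8% of all genes were called either way, 16.6% as higher and 14.2% as lower; the one that rose was HPRT1 (0.13, adjusted p = 0.017). It was not called without either mock library, siTotal1 replicate 1, siTotal2 replicate 1 or either library labelled siLong2 (0.09 to 0.13, adjusted p = 0.051 to 0.14). In siLong against siControl, 13 rose and 12 fell, where 53.5% of all genes were called either way, 25.1% as higher and 28.4% as lower. In siLong against mock, 5 rose and 17 fell, where 50.8% of all genes were called either way, 24.4% as higher and 26.4% as lower; the number higher was 3 without mock replicate 2 or without siLong2 replicate 2. The median log2 difference of the members in these 4 comparisons was 0.01, -0.07, 0.07 and -0.13, against medians over all tested genes of 0.00, 0.00, -0.01 and -0.01. The comparisons against siControl share those libraries, as do those against mock. The pooled siLong calls average sequences that sometimes went opposite ways. Against mock, MAT2B alone of the 5 that rose was called higher by each sequence. UMPS was called lower for siLong1 and MAT2A for the libraries labelled siLong2, while ADK and NME1 were not called for siLong1. Of the 17, CMPK1 was called higher for the libraries labelled siLong2. PRPS2, PAICS, IMPDH1, IMPDH2, GMPS, CAD, CTPS1, HPRT1, DTYMK, SFXN1, MTR and AHCY were called lower by each sequence.

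The controls themselves differed. In siControl against mock, 4 members rose and 18 fell, where 39.8% of all genes were called either way, 20.3% as higher and 19.5% as lower; the number higher was 2 without mock replicate 2 or without siControl replicate 2. The member median was -0.13, against -0.01 over all tested genes. The members lower than in mock, 14 in siTotal, 17 in siLong and 18 in siControl, were a larger share of the 33 than the share lower over all genes. The 3 comparisons share the mock libraries, and the member differences were small. Their root mean squares on the log2 scale were 0.15, 0.28 and 0.26 in that order, against 0.36, 0.50 and 0.52 over all tested genes. With a change of at least 1.25-fold also required, no member was lower in siTotal against mock, where 816 of 17730 genes were. In siLong PRPS2, PAICS, IMPDH1, CAD, HPRT1, CMPK1 and MTR were still lower, and in siControl CAD, CTPS2, SHMT1, MTHFD1, SFXN1, MTR and AHCY. In siTotal against siLong, which uses neither control, 14 rose and 9 fell, where 53.4% of all genes were called either way, 28.1% as higher and 25.3% as lower. The root mean square of the log2 differences in siTotal against siLong was 0.26 over the members and 0.46 over all tested genes. In siLong1 against siLong2, 13 rose and 14 fell, where 53.7% of all genes were called either way, 26.7% as higher and 27% as lower, with root mean squares of 0.40 and 0.65. In siTotal1 against siTotal2, 15 rose and 4 fell, where 43.9% of all genes were called either way, 23.3% as higher and 20.6% as lower; the number lower was 1 without siTotal2 replicate 1 and 2 without siTotal2 replicate 2.

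The members were also counted by whether a promoter window held CCAAT. In siTotal against siControl, 3 of the 14 genes with CCAAT and 4 of the 17 without it were lower, and in siTotal against mock 7 of 14 and 6 of 17. In siLong against siControl the counts were 2 of 14 and 9 of 17, and in siLong against mock 5 of 14 and 11 of 17. In siControl against mock, which involves no NFYA siRNA, 8 of 14 and 9 of 17 were lower. In the same order of comparisons, the counts higher with and without CCAAT were 4 and 5, 0 and 1, 7 and 5, 4 and 1, and 2 and 2. In siTotal against siLong, 4 were higher and 7 lower with CCAAT, and 9 higher and 2 lower without it. Over all tested genes 22.2%, 14.2%, 28.4%, 26.4% and 19.5% were lower in the first comparisons. In siTotal against siLong 28.1% were higher and 25.3% lower. Shares over all genes split by CCAAT were not counted. The difference between genes with and without CCAAT was not tested.

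**Figure D2:**
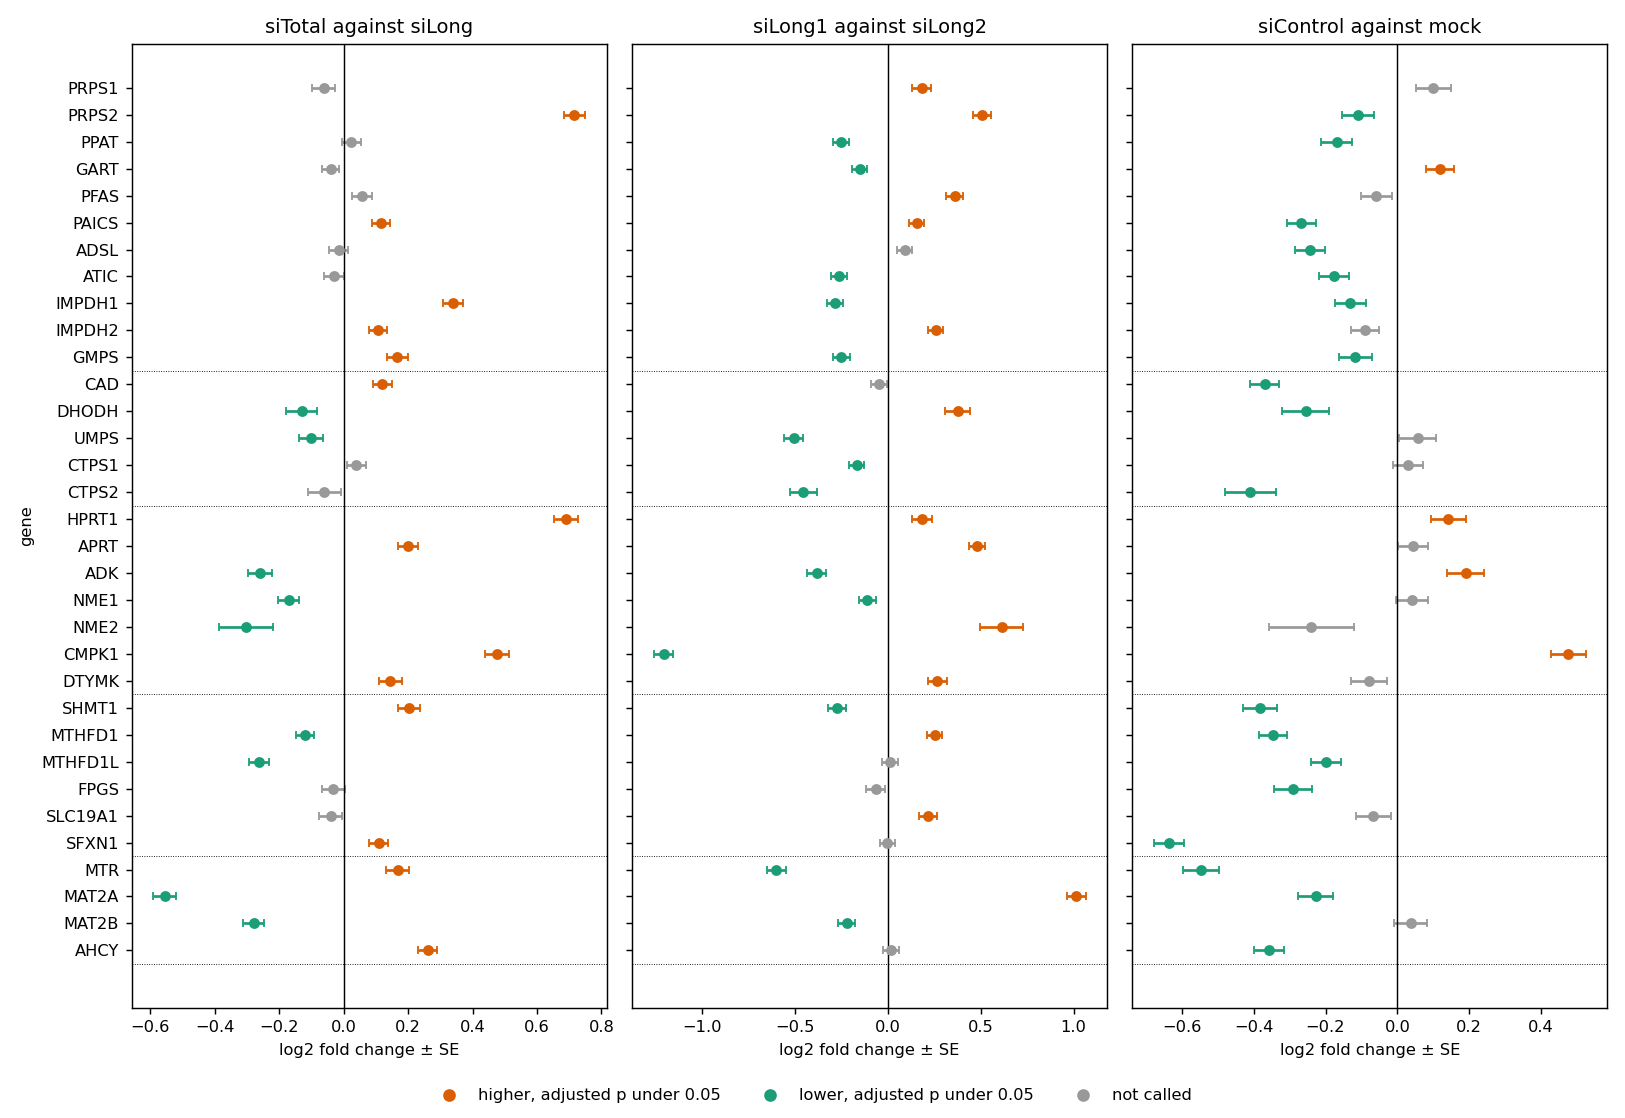
Log2 fold change with its standard error for each of the 33 genes in siTotal against siLong (left), siLong1 against siLong2 (middle) and siControl against mock (right); orange marks genes called higher, green genes called lower and grey genes not called. In siControl against mock 18 of 33 lie on the lower side as calls, and in siLong1 against siLong2 CMPK1 at -1.21 and MAT2A at 1.02 lie farthest from 0.

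In purine synthesis the clearest difference was in PRPS2, one of the synthetases that make phosphoribosyl pyrophosphate. PRPS2 had 88.2 and 86.8 CPM in siTotal1, 90.2 and 85.3 in siTotal2, 63.7 and 63.4 in siLong1, 43.4 and 46.1 in libraries labelled siLong2, 84.4 and 85.1 in siControl, and 90.7 and 92.2 in mock. Every siLong1 library and every library labelled siLong2 lay below all the other libraries, and the siTotal, siControl and mock libraries lay within a narrow band. It was 1.33-fold lower in siLong1 than in siControl (log2 difference -0.42, SE 0.05, adjusted p = 1.3e-09) and 1.89-fold lower in the libraries labelled siLong2 (log2 difference -0.92, SE 0.05, adjusted p = 2.4e-18). PRPS2 was 1.64-fold higher in siTotal than in siLong (log2 difference 0.72, SE 0.03, adjusted p = 1.3e-19), and still 0.46 higher on the log2 scale with the libraries labelled siLong2 left out (adjusted p = 1.6e-11). Its isozyme PRPS1 had 114 and 99.7 CPM in siTotal1, 104 and 104 in siTotal2, 118 and 116 in siLong1, 102 and 105 in libraries labelled siLong2, 116 and 108 in siControl, and 107 and 103 in mock. The PRPS1 groups overlapped broadly, with siLong1 at the upper end and the rest between 99.7 and 116 CPM. PRPS1 was -0.06 in siTotal against siLong on the log2 scale (adjusted p = 0.14) and was not called; with the libraries labelled siLong2 left out it was -0.15 (adjusted p = 0.004), which was called. Per kilobase PRPS1 lay above PRPS2 in every group.

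IMPDH1 and IMPDH2 encode the dehydrogenases at the branch point towards guanine nucleotides. IMPDH1 had 139 and 133 CPM in siTotal1, 132 and 124 in siTotal2, 94.0 and 95.2 in siLong1, 112 and 118 in libraries labelled siLong2, 125 and 126 in siControl, and 141 and 134 in mock. The siLong1 libraries were lowest, the libraries labelled siLong2 came next, and neither overlapped siTotal, siControl or mock. IMPDH1 was lower in siLong1 than in siControl (log2 difference -0.41, SE 0.04, adjusted p = 6.4e-10), and lower by less in those labelled siLong2 (log2 difference -0.12, SE 0.04, adjusted p = 0.017), the call that was lost when siControl replicate 2 or siLong2 replicate 1 was left out, which left 3 members called by both siLong siRNAs. IMPDH2 had 471 and 452 CPM in siTotal1, 550.5 and 545 in siTotal2, 516 and 506 in siLong1, 429 and 425 in libraries labelled siLong2, 517 and 530.0 in siControl, and 549 and 565 in mock. Here the libraries labelled siLong2 were lowest, siTotal1 came next, and siTotal2 overlapped mock. IMPDH2 was lower in siTotal1 than in siTotal2 (log2 difference -0.25, SE 0.04, adjusted p = 2.2e-06), and higher in siLong1 than in the libraries labelled siLong2 (log2 difference 0.26, SE 0.04, adjusted p = 6.8e-07), where IMPDH1 had the opposite order (-0.28, adjusted p = 1.3e-06). Per kilobase IMPDH2 exceeded IMPDH1 in every library.

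Among the other purine genes, PPAT, which commits ribose to purine synthesis, ranged over 116 to 148 CPM and PAICS, which carries the ring on through its middle steps, over 533 to 758 CPM. GART and PFAS, which act in its earlier steps, ranged over 248 to 294 CPM and 73.4 to 102 CPM. ADSL, which releases fumarate in purine synthesis, ranged over 122 to 153 CPM and ATIC, which completes inosine monophosphate, over 149.8 to 190.5 CPM. GMPS, which makes guanosine monophosphate, ranged over 146 to 204 CPM and was lowest in siLong1 (log2 difference -0.28, SE 0.05, adjusted p = 3.1e-06 against siControl). PAICS was highest in mock: it was lower in siTotal (-0.28), in siLong (-0.39) and in siControl (-0.27) than in mock, with adjusted p = 6e-08, 3.2e-12 and 9.6e-07. Those comparisons share the mock libraries. PPAT and PAICS are divergent neighbours on chromosome 4, and PPAT differed by -0.17 in siControl against mock (adjusted p = 0.0012). GART, -0.04 in siTotal against siLong, was not called there (adjusted p = 0.23).

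In pyrimidine synthesis CTPS1 was lower than in both controls in siTotal1, siTotal2 and siLong1, and also in the libraries labelled siLong2. In the latter the NFYA count, summed over isoforms, was not lower. CTPS1, which turns uridine triphosphate into cytidine triphosphate, had 119.5 and 113 CPM in siTotal1, 111 and 113 in siTotal2, 105 and 104 in siLong1, 116 and 119 in libraries labelled siLong2, 134 and 136 in siControl, and 132 and 132 in mock. All 8 of these libraries lay below all 4 control libraries, and the control libraries lay close together. Against siControl, CTPS1 differed by -0.21 in siTotal1, -0.26 in siTotal2, -0.36 in siLong1 and -0.20 in libraries labelled siLong2, with adjusted p = 5.4e-05, 1.8e-06, 2.3e-09 and 0.00013. Against mock the values were -0.19, -0.24, -0.33 and -0.17, with adjusted p = 0.00038, 3.4e-05, 1.5e-08 and 0.00084. These calls were kept with any 1 library left out. When the estimated change also had to be at least 1.25-fold, CTPS1 was not called by both siRNAs of either target. Its isozyme CTPS2 had 18.8 and 19.9 CPM in siTotal1, 21.7 and 22.2 in siTotal2, 19.5 and 17.2 in siLong1, 24.9 and 25.4 in libraries labelled siLong2, 18.7 and 16.8 in siControl, and 22.8 and 24.3 in mock. CTPS2 was lowest in siControl and siLong1 and highest in the libraries labelled siLong2, which overlapped none of the other groups. It was lower in siControl than in mock (log2 difference -0.41, SE 0.07, adjusted p = 1.2e-05) and lower in siLong1 than in the libraries labelled siLong2 (log2 difference -0.45, SE 0.07, adjusted p = 1.5e-06). In siTotal1 against siTotal2 it was -0.18 (adjusted p = 0.038), a call lost without siTotal2 replicate 1 (-0.21, adjusted p = 0.061), siTotal2 replicate 2 (-0.17, adjusted p = 0.13) or siTotal1 replicate 1 (-0.16, adjusted p = 0.16).

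DHODH and UMPS differed between the siRNA sequences of a target. DHODH, the mitochondrial enzyme that oxidises dihydroorotate, had 29.5 and 26.2 CPM in siTotal1, 21.9 and 20.9 in siTotal2, 30.4 and 30.4 in siLong1, 23.1 and 23.8 in libraries labelled siLong2, 23.5 and 21.6 in siControl, and 26.8 and 27.2 in mock. It was high in siLong1 and siTotal1 and low in siTotal2, the libraries labelled siLong2 and siControl, and siTotal1 overlapped mock. DHODH was higher in siTotal1 than in siTotal2 (log2 difference 0.38, SE 0.07, adjusted p = 1.5e-05) and higher in siLong1 than in the libraries labelled siLong2 (log2 difference 0.38, SE 0.07, adjusted p = 8.9e-06). UMPS, which makes uridine monophosphate, had 79.7 and 71.6 CPM in siTotal1, 68.1 and 63.3 in siTotal2, 63.0 and 63.9 in siLong1, 86.6 and 93.5 in libraries labelled siLong2, 73.1 and 71.0 in siControl, and 69.0 and 69.6 in mock. The libraries labelled siLong2 were highest and did not overlap any other group, and siLong1 was at the lower end beside siTotal2. UMPS differed by -0.51 in siLong1 against siLong2 (SE 0.05, adjusted p = 2e-10). CAD, which catalyses the opening steps of the pathway, ranged over 215 to 289 CPM and was highest in mock, with log2 differences against mock of -0.22 in siTotal, -0.34 in siLong and -0.37 in siControl (adjusted p = 5.9e-06, 1.9e-10 and 1.8e-09).

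**Figure D3:**
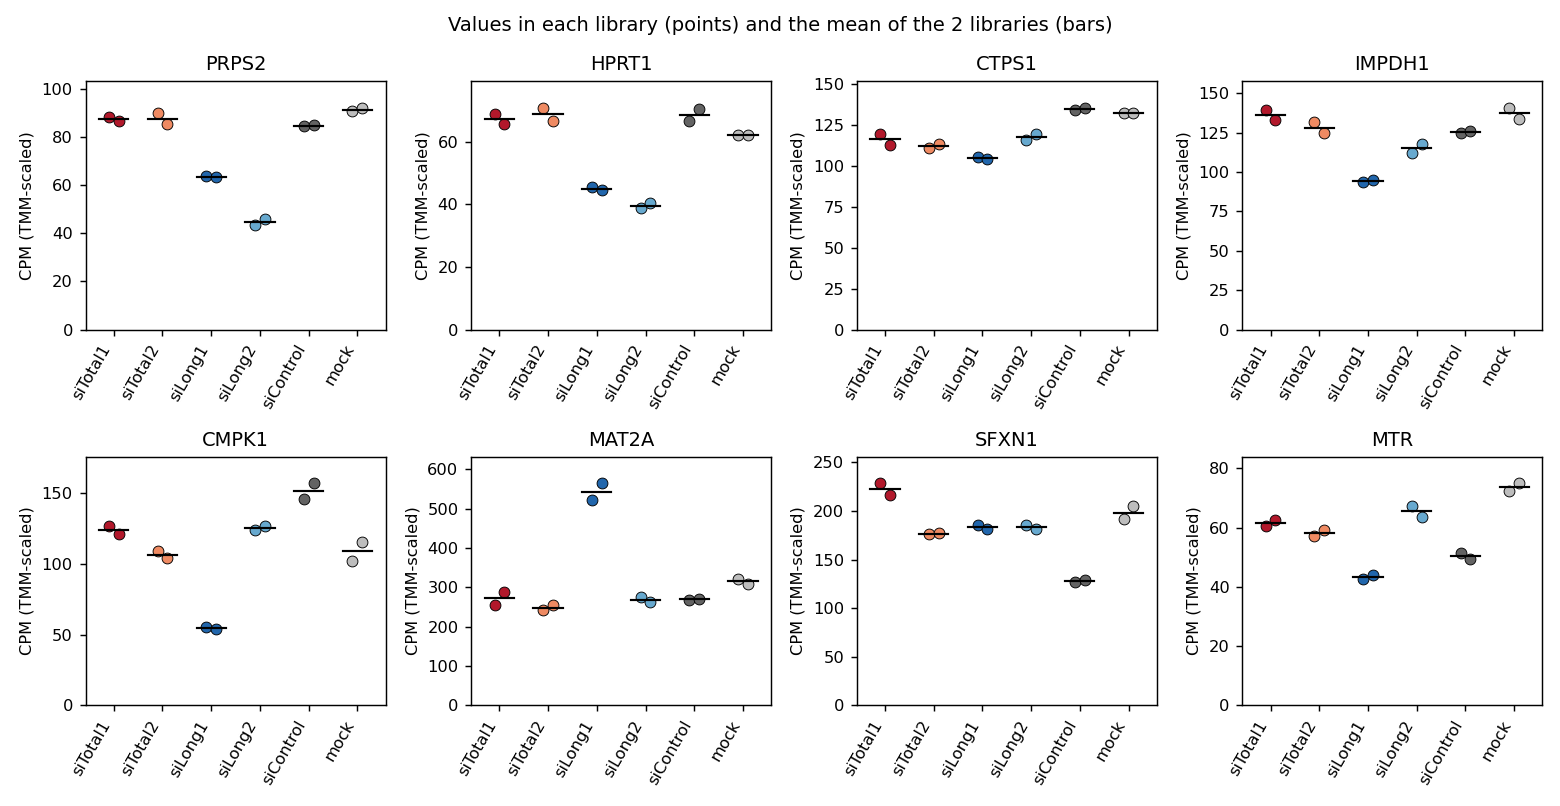
CPM in each library (points, from 0) with the mean of the 2 libraries of a group (lines) for 8 genes, in siTotal1, siTotal2, siLong1, siLong2, siControl and mock. PRPS2 and HPRT1 are low in both siLong groups, CTPS1 is lower in siTotal1, siTotal2, siLong1 and siLong2 than in both controls, CMPK1 and MAT2A stand apart in siLong1, and SFXN1 is lowest in siControl.

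In salvage the clearest difference was in HPRT1. HPRT1, which rebuilds nucleotides from hypoxanthine and guanine, had 69.0 and 65.7 CPM in siTotal1, 70.9 and 66.5 in siTotal2, 45.5 and 44.5 in siLong1, 38.8 and 40.3 in libraries labelled siLong2, 66.7 and 70.5 in siControl, and 62.2 and 62.1 in mock. Both siLong groups lay below all the other libraries, and siTotal overlapped siControl. HPRT1 was 1.52-fold lower in siLong1 than in siControl (log2 difference -0.61, SE 0.05, adjusted p = 1.1e-12) and 1.73-fold lower in the libraries labelled siLong2 (log2 difference -0.79, SE 0.05, adjusted p = 1.3e-15). It was 1.61-fold higher in siTotal than in siLong (log2 difference 0.69, SE 0.04, adjusted p = 3.8e-18), and 0.60 higher on the log2 scale with the libraries labelled siLong2 left out (adjusted p = 4.4e-13). In siControl against mock it was 0.14 (adjusted p = 0.019), which was not called without mock replicate 1 (0.15, adjusted p = 0.064), mock replicate 2 (0.14, adjusted p = 0.072) or siControl replicate 2 (0.10, adjusted p = 0.26). PRPS2 and HPRT1 were the members that remained called by both siLong siRNAs when a change of at least 1.25-fold was required. Over all tested genes 6.16% met that rule either way. HPRT1 is known to use the phosphoribosyl pyrophosphate that PRPS enzymes make.

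ADK, which phosphorylates adenosine, had 62.6 and 59.5 CPM in siTotal1, 56.0 and 55.5 in siTotal2, 63.8 and 58.5 in siLong1, 75.9 and 83.4 in libraries labelled siLong2, 67.5 and 68.1 in siControl, and 58.3 and 60.6 in mock. Its libraries labelled siLong2 were highest, siControl was next, and siTotal2 was lowest. ADK was higher in siControl than in mock (log2 difference 0.19, SE 0.05, adjusted p = 0.0028) and lower in siLong1 than in the libraries labelled siLong2 (-0.38, adjusted p = 7.4e-08). APRT, which salvages adenine, ranged over 101 to 157 CPM and was lowest in the libraries labelled siLong2 (log2 difference -0.60, SE 0.04, adjusted p = 2.8e-14 against siControl).

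CMPK1, the kinase for uridine and cytidine monophosphates, covered the widest range of all members. CMPK1 had 127 and 121 CPM in siTotal1, 109 and 104 in siTotal2, 55.0 and 53.6 in siLong1, 124 and 127 in libraries labelled siLong2, 146 and 157 in siControl, and 102 and 115 in mock. The siLong1 libraries lay far below every other library, whereas the libraries labelled siLong2 lay beside siTotal1. CMPK1 was 2.79-fold lower in siLong1 than in siControl (log2 difference -1.48, SE 0.05, adjusted p = 2.8e-21) and 2.31-fold lower in siLong1 than in the libraries labelled siLong2 (log2 difference -1.21, SE 0.05, adjusted p = 9.6e-19). The controls differed too, CMPK1 being higher in siControl than in mock (log2 difference 0.48, SE 0.05, adjusted p = 1.5e-09), so that the libraries labelled siLong2 were -0.27 against siControl and 0.20 against mock (adjusted p = 1.9e-05 and 0.00081).

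DTYMK, which phosphorylates thymidylate, had 67 and 64.0 CPM in siTotal1, 53.7 and 51.5 in siTotal2, 60.3 and 56.2 in siLong1, 47.0 and 49.7 in libraries labelled siLong2, 63.3 and 61.5 in siControl, and 67.8 and 63.9 in mock. It was lower in siTotal2 and in the libraries labelled siLong2 than in siTotal1, siControl and mock, without overlap. DTYMK was higher in siTotal1 than in siTotal2 (log2 difference 0.32, SE 0.05, adjusted p = 3.8e-06). NME1, a nucleoside diphosphate kinase, had 167 and 157 CPM in siTotal1, 152 and 138 in siTotal2, 169 and 163 in siLong1, 178 and 180.1 in libraries labelled siLong2, 168 and 159 in siControl, and 161 and 157 in mock. Its groups overlapped except that the libraries labelled siLong2 were highest and siTotal2 lowest. NME1 was -0.17 in siTotal against siLong (adjusted p = 2.2e-05), and -0.12 without the libraries labelled siLong2 (adjusted p = 0.015). NME2, its neighbour and paralogue, had 5.19 and 6.39 CPM in siTotal1, 7.12 and 6.43 in siTotal2, 8.95 and 10.1 in siLong1, 6.13 and 6.34 in libraries labelled siLong2, 5.78 and 5.50 in siControl, and 7.22 and 6.04 in mock. The siLong1 libraries lay above all others. NME2 was higher in siLong1 than in the libraries labelled siLong2 (log2 difference 0.61, SE 0.12, adjusted p = 2.3e-05) and -0.30 in siTotal against siLong (SE 0.08, adjusted p = 0.0026). Without the libraries labelled siLong2 this last value was -0.61 (adjusted p = 3.2e-06). The NME2 values are uncertain: the readthrough gene NME1-NME2 shares 18.6% of the exon bases of NME1 and 22.9% of those of NME2, and was listed with 0 reads in every library.

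In the folate cycle SFXN1 differed most between the libraries. SFXN1, the carrier that brings serine into mitochondria, had 228 and 216 CPM in siTotal1, 176 and 177 in siTotal2, 186 and 182 in siLong1, 186 and 182 in libraries labelled siLong2, 127 and 128 in siControl, and 192 and 205 in mock. The siControl libraries were far below all others, siTotal1 was above mock, and siTotal2 and both siLong groups lay together. SFXN1 was 1.55-fold lower in siControl than in mock (log2 difference -0.64, SE 0.04, adjusted p = 4e-15). It was 0.64 in siTotal and 0.53 in siLong against siControl, with adjusted p = 1.1e-16 and 1e-14. Against mock it was not called in siTotal (adjusted p = 1) and was -0.11 in siLong (adjusted p = 0.0099), which was not called without mock replicate 2 (-0.06, adjusted p = 0.28). SFXN1 was higher in siTotal1 than in siTotal2 (log2 difference 0.33, SE 0.04, adjusted p = 2.3e-08).

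SHMT1, the cytosolic enzyme that moves a 1-carbon unit from serine to folate, had 72.2 and 71.3 CPM in siTotal1, 82.3 and 78.2 in siTotal2, 60.2 and 59.95 in siLong1, 70.5 and 74.5 in libraries labelled siLong2, 61.4 and 58.2 in siControl, and 78.5 and 77.5 in mock. It was low in siLong1 and siControl, which overlapped, and high in siTotal2 and mock, which overlapped too. SHMT1 was lower in siControl than in mock (log2 difference -0.38, SE 0.05, adjusted p = 2.2e-08), and it was -0.16 in siTotal1 against siTotal2 (adjusted p = 0.0054), which was not called without siTotal2 replicate 1 (-0.13, adjusted p = 0.074). MTHFD1, which interconverts the cytosolic 1-carbon folates, ranged over 207 to 272 CPM and was lower than in mock in siTotal (-0.31, adjusted p = 5.4e-09) and in siControl (-0.35, adjusted p = 4.2e-09). It was also called lower in siLong against mock, though not in siLong1 alone. MTHFD1L, which releases formate from mitochondria, ranged over 119.7 to 155 CPM and was lower in siTotal than in siLong (log2 difference -0.26, SE 0.03, adjusted p = 2e-09, and -0.27 without the libraries labelled siLong2). FPGS, which adds the glutamate tail that keeps folate in cells, ranged over 50.6 to 65.7 CPM, and its values in siTotal against siLong were -0.03 (adjusted p = 0.51). SLC19A1, the reduced folate carrier, ranged over 60.2 to 77.8 CPM and was -0.04 in the same comparison (adjusted p = 0.35). Without the libraries labelled siLong2, SLC19A1 was -0.15 (adjusted p = 0.0042), which was called. SLC19A1 shares 14% of its exon bases with COL18A1 on the opposite strand, and whether reads were assigned by strand is unknown here. COL18A1 was -1.28 on the log2 scale in siControl against mock, where SLC19A1 was not called.

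In the methionine cycle MAT2A stood apart in 1 group. MAT2A, which makes S-adenosylmethionine, had 255 and 288 CPM in siTotal1, 242 and 255 in siTotal2, 521 and 564 in siLong1, 274 and 262 in libraries labelled siLong2, 267 and 270.4 in siControl, and 320.0 and 309 in mock. Both siLong1 libraries lay far above every other library, while the libraries labelled siLong2 overlapped siControl. MAT2A was 2.02-fold higher in siLong1 than in siControl (log2 difference 1.01, SE 0.05, adjusted p = 7.9e-16), and 2.02-fold higher than in the libraries labelled siLong2 (log2 difference 1.02, SE 0.05, adjusted p = 9.6e-16). It was not called in the libraries labelled siLong2 against siControl (-0.003, SE 0.05, adjusted p = 0.97). MAT2A shares 12.4% of its exon bases with GGCX on the opposite strand, which had 24.9 to 34.7 CPM and was 0.08 in siLong1 against siLong2 (adjusted p = 0.31). MAT2B, its regulatory partner, had 67.7 and 64.2 CPM in siTotal1, 70.0 and 67.8 in siTotal2, 77.6 and 73.8 in siLong1, 87.9 and 88.6 in libraries labelled siLong2, 71.8 and 72.0 in siControl, and 68.8 and 71.3 in mock. The libraries labelled siLong2 were highest, siLong1 came next, and siTotal lay at the low end. MAT2B was lower in siTotal than in siLong (log2 difference -0.28, SE 0.03, adjusted p = 4.9e-09), and -0.17 with the libraries labelled siLong2 left out (adjusted p = 0.001).

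MTR, which remethylates homocysteine with a folate-borne methyl group, had 60.5 and 62.4 CPM in siTotal1, 57.2 and 59.1 in siTotal2, 42.5 and 43.9 in siLong1, 67.4 and 63.6 in libraries labelled siLong2, 51.5 and 49.3 in siControl, and 72.4 and 74.9 in mock. It was highest in mock and lowest in siLong1, and none of the 6 groups overlapped another. MTR was lower in siControl than in mock (log2 difference -0.55, SE 0.05, adjusted p = 1.3e-11) and lower in siLong1 than in the libraries labelled siLong2 (log2 difference -0.60, SE 0.05, adjusted p = 1.7e-12). Against mock it was -0.30 in siTotal and -0.47 in siLong (adjusted p = 4.4e-07 and 5.3e-12); against siControl it was 0.25 in siTotal (adjusted p = 1.4e-05). AHCY, which clears S-adenosylhomocysteine, ranged over 346 to 502 CPM. AHCY was higher in siTotal than in siLong (log2 difference 0.26, SE 0.03, adjusted p = 1.3e-09, and 0.25 without the libraries labelled siLong2) and lower in siControl than in mock (log2 difference -0.36, SE 0.04, adjusted p = 6.3e-09).

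**Figure D4:**
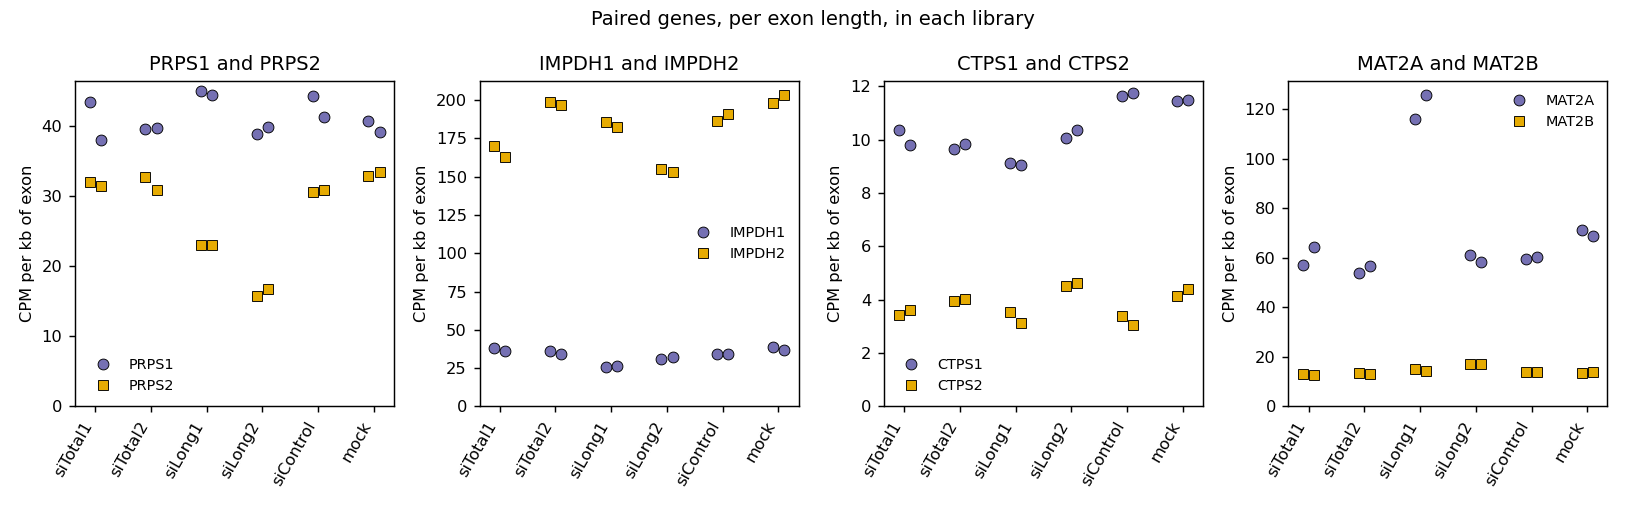
Level in CPM per kb of exon in each library (2 points a group) for the pairs PRPS1 and PRPS2, IMPDH1 and IMPDH2, CTPS1 and CTPS2, and MAT2A and MAT2B, in siTotal1, siTotal2, siLong1, siLong2, siControl and mock. PRPS2 is lower in both siLong groups than in the other 4 groups, IMPDH2 stays above IMPDH1 and CTPS1 above CTPS2 in every library, and MAT2A is highest in siLong1.

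Genes of neighbouring routes were counted in siTotal against siLong, from lists of other enzymes drawn up by pathway. All 12 genes of deoxynucleotide supply were called, 8 higher and 4 lower, where 53.4% of all genes were called, with a median log2 difference of 0.31 against 0.01 over all tested genes. RRM2, a subunit of ribonucleotide reductase, was 0.58 higher in siTotal than in siLong (SE 0.03, adjusted p = 3e-18) and TK1, which salvages thymidine, was 0.57 higher (adjusted p = 2e-18), whereas RRM2B, the p53-inducible subunit, was -0.57 (adjusted p = 1.2e-13). With the libraries labelled siLong2 left out, 7 were higher and 3 lower, and RRM2 was 0.45, TK1 0.24 and RRM2B -0.53. The 53.4% over all genes belongs to the fit with those libraries, and the share without them is not given here. By both siLong siRNAs against both controls, RRM1, RRM2, DCK, DCTD and NUDT1 were lower and RRM2B and SAMHD1 higher. Over all tested genes 7.24% were lower and 6.71% higher by that rule. RRM2 and NUDT1 were also lower by both siTotal siRNAs against both controls, where 1.83% of all genes were lower.

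Among the other cytosolic folate and methionine genes, 8 of 17 were higher and 3 lower in siTotal against siLong, with a median of 0.07, where 28.1% of all genes were higher and 25.3% lower. TYMS, which makes thymidylate, was 0.58 higher (adjusted p = 1.4e-18). With the libraries labelled siLong2 left out TYMS was 0.80 higher, and 6 of 16 tested genes of the list were higher and 4 lower. The 28.1% and 25.3% over all genes belong to the fit with those libraries. In the mitochondrial folate arm and glycine cleavage list, 3 of 10 were higher and 4 lower, against the same shares over all genes, led by ALDH1L2 (0.86, adjusted p = 3e-04), SHMT2 (0.38, adjusted p = 2.4e-14) and MTHFD2L (-0.28, adjusted p = 0.00095). Without the libraries labelled siLong2, ALDH1L2 was 1.38, SHMT2 0.47 and MTHFD2L -0.09 (adjusted p = 0.38).

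All 3 serine synthesis genes, which supply the 1-carbon units of the folate cycle, were higher in siTotal than in siLong: PHGDH by 0.70, PSAT1 by 0.25 and PSPH by 0.14 on the log2 scale (adjusted p = 1.5e-18, 1.4e-08 and 0.0017), where 28.1% of all genes were higher. With the libraries labelled siLong2 left out these were 0.50, 0.42 and 0.41 (adjusted p = 1.3e-11, 1.5e-10 and 1.2e-08). PHGDH had 79.9 and 79.4 CPM in siTotal1, 106 and 97.4 in siTotal2, 61.2 and 66.0 in siLong1, 49.9 and 47.0 in libraries labelled siLong2, 66.3 and 64.3 in siControl, and 115 and 112 in mock. It was highest in mock, without overlap with any other group, and lowest in the libraries labelled siLong2. All 3 were also lower in siControl than in mock, with log2 differences of -0.80 for PHGDH, -0.49 for PSAT1 and -0.32 for PSPH (adjusted p = 4.3e-16, 1.7e-11 and 5.1e-06).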

How the data were processed

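RNA of 12 HCT116 cultures in 6 groups of 2 was sequenced. The authors deposited whole-number counts per gene; the submitters' processing notes name the tools STAR 2.4.0f1 and featureCounts and the build hg19. For the annotation release and any use of strand in the counting, the sources used here give nothing. No column of another sample was present (0 columns). Counts were tested with edgeR 4.0.16 in R 4.3.3: genes were filtered at a minimum count of 10 and a minimum total of 15, scaled by the trimmed mean of M-values, and fitted over all 12 libraries with 6 residual degrees of freedom (quasi-likelihood F-test, Benjamini-Hochberg adjustment over all tested genes). The common biological coefficient of variation was 3.57%. The script was tested on simulated data. DESeq2 1.42.0, other scalings and filters, and libraries left out were tried as alternatives. Exon lengths came from GENCODE on GRCh38, matched by gene identifier, and promoter sequences from RefSeq GRCh38.p14.

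Values in every library are given for members called by both siRNAs against both controls, for the 3 largest called rises and falls in siTotal against siLong, siControl against mock, siLong1 against siLong2 and siTotal1 against siTotal2, and for 5 isozyme or subunit pairs. Of other pathway genes, up to 3 called ones with the largest absolute difference were named per list; some items are not reported here. The genes, lists and tests were chosen with earlier results of these data known. COL18A1, GGCX, PHGDH and the genes named from the strictest comparison or in lists of calls were added after their values were seen.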

Additional observations from a re-analysis of the deposited data

Results flagged for a closer look

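In 8 genes the 2 siRNA sequences against the same target were called in opposite directions against a shared control, and the direct comparison of the sequences was called as well (edgeR's quasi-likelihood test). Only the members were screened by this rule. The share of all tested genes that met it was not counted, so whether 8 is unusual cannot be told. Over all tested genes, 43.9% were called either way in siTotal1 against siTotal2 and 53.7% in siLong1 against siLong2. No explanation was tested.

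SFXN1, the mitochondrial serine carrier, was 0.17 in siTotal1 and -0.17 in siTotal2 against mock on the log2 scale, with a direct difference of 0.33 (adjusted p = 2.3e-08). UMPS was -0.18 for siLong1 and 0.32 for the libraries labelled siLong2 against siControl, and -0.13 and 0.38 against mock in the same order, with a direct difference of -0.51 (adjusted p = 2e-10). ADK was -0.15 for siLong1 and 0.23 for the libraries labelled siLong2 against siControl, with a direct difference of -0.38 (adjusted p = 7.4e-08). MTR was -0.22 for siLong1 and 0.38 for the libraries labelled siLong2 against siControl, with a direct difference of -0.60 (adjusted p = 1.7e-12).

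ATIC was -0.15 for siLong1 and 0.11 for the libraries labelled siLong2 against mock, with a direct difference of -0.26 (adjusted p = 2.9e-06). DHODH was 0.18 for siLong1 and -0.20 for the libraries labelled siLong2 against mock, with a direct difference of 0.38 (adjusted p = 8.9e-06). The widest splits were CMPK1, at -1.002 for siLong1 and 0.20 for the libraries labelled siLong2 against mock (direct difference -1.21, adjusted p = 9.6e-19), and MAT2A, at 0.79 and -0.23 in the same order (direct difference 1.02, adjusted p = 9.6e-16).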

How the results depend on the processing

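Of the 20 counts of members called, 20 stayed within 1.5 times under DESeq2 size factors, and 19 without a filter on low counts, with only the compared groups fitted or with DESeq2's test. The exceptions were siTotal1 against siTotal2, with 2 lower without the filter and 2 with DESeq2's test, and siTotal against mock, with 0 higher in the fit of the compared groups only. Requiring a 1.25-fold change left, as higher and lower, 3 and 1 in siTotal against siControl, 0 and 0 in siTotal against mock, 3 and 4 in siLong against siControl, 0 and 7 in siLong against mock, 4 and 1 in siTotal against siLong, 1 and 7 in siControl against mock, 2 and 0 in siTotal1 against siTotal2, 6 and 5 in siLong1 against siLong2, and 0 and 2 lower by both siTotal and both siLong siRNAs. Over all tested genes, the shares called either way in that order were 21.9%, 10.1%, 31.7%, 27.4%, 25.9%, 20.8%, 24.2% and 34.9%. By both siTotal and both siLong siRNAs the shares were 1.05% and 6.16%. With each siRNA sequence as 1 replicate, 3 comparisons were fitted. They were siTotal and siLong, each against siControl and mock pooled as 2 controls, and siTotal against siLong. Each called 0 members higher and 0 lower, and 0 of all genes tested. Against the pooled controls, which is another contrast than against 1 control, 6 values had the opposite sign: in siTotal, CAD (-0.045) and MTR (-0.051), called higher against siControl alone, and CTPS2 (0.004), called lower against mock alone; in siLong, SHMT1 (-0.058) and MTHFD1 (-0.019), called higher against siControl alone, and SFXN1 (0.18), called lower against mock alone. Leaving out the libraries labelled siLong2, chosen after seeing the data, gave 3 higher and 8 lower by siLong1 against both controls, and turned UMPS in siLong against mock (-0.13) and, in siTotal against siLong, IMPDH2 (-0.024), UMPS (0.15) and APRT (-0.042). The causes were not tested.

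With 1 library left out, the counts ranged over 8 to 11 higher and 5 to 11 lower in siTotal against siControl, 0 to 1 higher and 10 to 17 lower in siTotal against mock, 11 to 13 higher in siLong against siControl, 3 to 5 higher and 16 to 19 lower in siLong against mock, 7 to 11 lower in siTotal against siLong, 2 to 4 higher and 15 to 19 lower in siControl against mock, 10 to 16 higher and 1 to 4 lower in siTotal1 against siTotal2, 11 to 13 higher and 13 to 14 lower in siLong1 against siLong2, and 3 to 5 lower by both siLong siRNAs against both controls. Fitting the replicate number as a block kept all 20 counts within 1.5 times and 169 of 170 gene calls; PRPS2 in siControl against mock (-0.11) moved to an adjusted p of 0.052. Same-numbered libraries did not deviate together (correlations of -0.085 to 0.099 over 15 pairs of groups, 0 over 0.1). No shared deviation was thus seen, and the labels do not say whether same-numbered libraries were prepared together. NME2 had the lowest CPM of the members, at 5.19 to 10.1. Its values are also uncertain because it shares exon bases with the readthrough gene NME1-NME2.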

Other observations

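Genes that break down or further phosphorylate nucleotides were split between directions. In siTotal against siLong, 4 of 17 genes of nucleotide breakdown were higher and 7 lower, where 28.1% of all genes were higher and 25.3% lower, led by XDH (-1.38, adjusted p = 0.004), NT5E (-0.75, adjusted p = 2.8e-14) and CDA (-0.64, adjusted p = 4.5e-13), which act on xanthine, on extracellular adenosine monophosphate and on cytidine. With the libraries labelled siLong2 left out these were -1.88, -0.40 and -0.82. Of 19 other kinases and salvage enzymes, 5 were higher and 7 lower, against the same shares, led by AK1 (-0.78), AK4 (-0.50) and NME6 (0.50), which were -0.66, -0.59 and 0.79 without those libraries.

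All 10 genes of a list of regulators and proliferation genes were called in the same comparison, 6 higher and 4 lower, where 53.4% of all genes were called. CDK1, a mitotic kinase, was 0.67 and E2F1 0.48 higher in siTotal than in siLong, and MAX, the partner of MYC, was -0.47 (adjusted p = 4.1e-19, 2.5e-12 and 2.9e-14). Without the libraries labelled siLong2 these were 0.63, 0.31 and -0.62, and 5 of the 10 were higher and 2 lower. The 53.4% over all genes belongs to the fit with those libraries.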
